A study of Mus musculus with 48 samples.

Results

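The genes followed here are 10 targets of the transcription factor p53 in mouse liver: Phlda3, Eda2r, Mdm2, Ccng1, Tnfrsf10b, Cdkn1a, Zmat3, Aen, Trp53inp1 and Bax. They were picked by symbol, 10 of the 14251 genes in the deposited tables, because several of them are high mainly when corticosterone and atglistatin are combined in these same data. Their levels in the 4 groups therefore chose them, and the differences between those groups are given as a description. A gene is called at an adjusted p of at most 0.05 in edgeR's quasi-likelihood test over all genes, and for these 10 genes a call between groups only says where a value falls on that scale and is no evidence, since the genes were chosen on it. All 10 passed the filter on low counts that left 12688 genes, a filter that a gene high in 1 group alone can pass.

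All mice were male C57BL6J. The Cort_ATGLi group (14 mice) drank corticosterone, the main glucocorticoid of rodents, at 100 ug/ml for 2 weeks and ate chow with 571 mg/kg of milled-in atglistatin, an inhibitor of adipose triglyceride lipase (ATGL). The Cort_CON group (14 mice) received the corticosterone water and no inhibitor. The EtOH_ATGLi group (10 mice) drank the 1% ethanol vehicle and ate the atglistatin food, and the EtOH_CON group (10 mice) received the vehicle water and no inhibitor. ATGL releases fatty acids from stored triglyceride, and the inhibitor was given to lower lipolysis. The inhibitor reached the whole animal through its food, so the labels do not confine its action to liver or to fat. The labels call 1 Cort_ATGLi mouse and 9 Cort_CON mice diabetic, and no mouse of the vehicle groups.

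p53 is a transcription factor that the ubiquitin ligase Mdm2 keeps scarce in unstressed cells. DNA damage and other stresses release p53 from that control, and p53 then binds paired decamers in the DNA and switches on genes that stop the cell cycle, repair DNA, start apoptosis or feed back on p53 itself. In hepatocytes these targets are known from responses to radiation, genotoxic drugs and loss of Mdm2. The activity of p53 is set largely by the stability of the protein, which RNA counts do not measure.

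Each liver gave 1 library of 3′-end tags, with 10832711 to 21175603 counts in Cort_ATGLi, 8417531 to 19548520 in Cort_CON, 9318390 to 21086840 in EtOH_ATGLi and 7449109 to 17246286 in EtOH_CON. No pair of libraries of a group agreed within sampling noise. Hepatocyte marker genes dominated every group, with median sums of 104750 CPM (read counts scaled to a common library size) in Cort_ATGLi, 121589 in Cort_CON, 96984 in EtOH_ATGLi and 105403 in EtOH_CON. Pancreatic acinar genes reached a summed 6285 CPM in 1 vehicle library, and 6 libraries had the pancreatic gene Cpa1 above 20 CPM, none of them in Cort_ATGLi. Cort_ATGLi replicate 41 correlated least with its own group (median r = 0.95 across genes) and held the highest macrophage marker sum of its group, 408.9 CPM against a group median of 99.5 CPM. Calls that change without these libraries are given beside the result or with the other settings at the end.

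The start regions of 7 of the 10 genes are in the RefSeq promoter table (GRCm38.p6, 250 bases before to 50 after a start), with 9 starts in all. They are shown because p53 acts by binding DNA, and the genes differ in whether letters of its consensus lie close to the start. The p53 decamer, the 10-letter unit of its binding sequence (both strands), was found in 8.36% of all 32851 promoters, and a full site, 2 decamers with no gap, with at most 1 mismatch in 0.088%. In each line the capitals mark the 20 bases of the promoter nearest to the full consensus, written 5′ to 3′ on the strand of the gene.
Ccng1: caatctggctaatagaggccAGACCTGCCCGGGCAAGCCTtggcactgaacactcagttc
Cdkn1a: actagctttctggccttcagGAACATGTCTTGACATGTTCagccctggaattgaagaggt
Bax: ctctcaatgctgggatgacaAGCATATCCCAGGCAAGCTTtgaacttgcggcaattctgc
Phlda3: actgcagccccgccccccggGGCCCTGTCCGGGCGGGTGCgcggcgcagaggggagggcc

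The Ccng1 line is chr11:40755442-40755501 on the minus strand, and its match, 195 bases before the start, has 1 mismatch. The Cdkn1a line is chr17:29090908-29090967 on the plus strand, at the upstream of 2 annotated starts, again with 1 mismatch. Both therefore belong to the 0.088% of promoters with a match this close. The Bax line (chr7:45467070-45467129, minus strand) has 3 mismatches, a closeness reached by 6.29% of all promoters, and the Aen match also has 3. The Phlda3 line (chr1:135766022-135766081, plus strand) has 5 mismatches and no decamer, and Eda2r and the second Cdkn1a start had no decamer either. That says only that these letters are not in this window. Mdm2 had 1 decamer, 186 bases before the start in the table. A match describes letters and is neither a site nor a cause. Tnfrsf10b, Zmat3 and Trp53inp1 are named only.

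**Figure D1:**
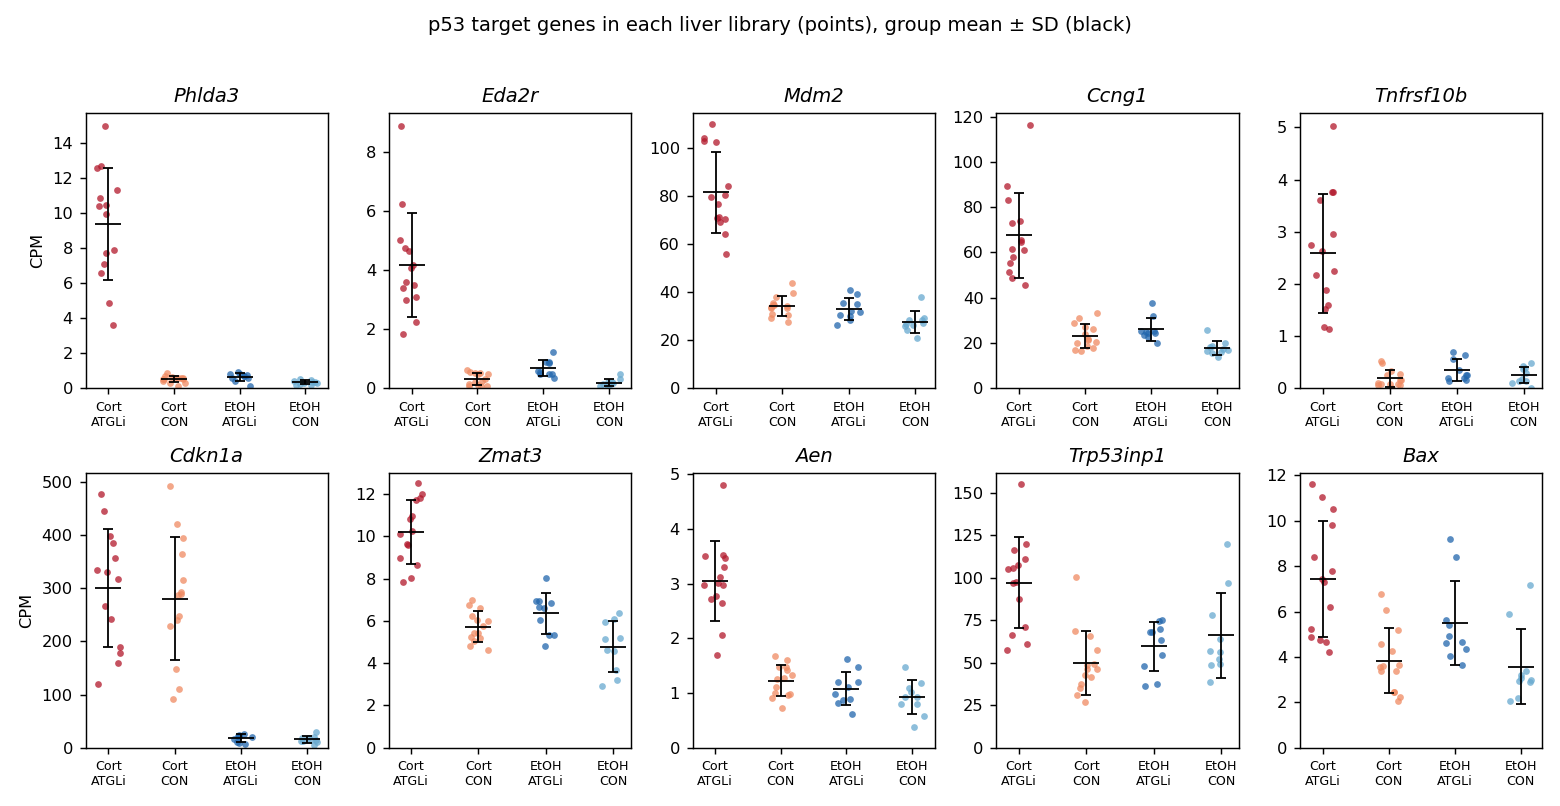
Level of each of the 10 genes in CPM (linear axes from 0) in every liver library (points), by group, with the group mean and SD in black. Phlda3, Eda2r, Mdm2, Ccng1, Tnfrsf10b and Aen are higher in every Cort_ATGLi library than in any library of the other 3 groups, whereas Cdkn1a is high in both corticosterone groups.

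Phlda3, Eda2r and Tnfrsf10b had few counts in 3 of the groups and many more in Cort_ATGLi. In bulk liver, a higher level can come from more RNA per cell or from more cells that make it, and these cannot be told apart. Phlda3 (ENSMUSG00000041801, chr1:135766119-135769136, GRCm38), whose protein binds membrane phosphoinositides and restrains the kinase Akt, had a lowest, median and highest level of 3.58, 10.2 and 14.9 CPM in Cort_ATGLi. The same 3 values were 0.148, 0.558 and 0.888 CPM in Cort_CON, 0.141, 0.691 and 0.917 CPM in EtOH_ATGLi, and 0.156, 0.335 and 0.531 CPM in EtOH_CON. The lowest Cort_ATGLi library thus lay above the highest library of every other group. The fitted log2 fold change of Phlda3 in Cort_ATGLi over Cort_CON was 4.10 ± 0.19 (SE), which is 17.2-fold. Its median raw count per library was 147 in Cort_ATGLi and 7.5 in Cort_CON, so the low side of the ratio is the less precise one.

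Eda2r (ENSMUSG00000034457, chrX:97333840-97377216) encodes a receptor of the tumour necrosis factor family that binds ectodysplasin A2. Its lowest, median and highest levels were 1.85, 3.85 and 8.88 CPM in Cort_ATGLi, 0.0583, 0.279 and 0.619 CPM in Cort_CON, 0.335, 0.560 and 1.23 CPM in EtOH_ATGLi, and 0.0725, 0.145 and 0.469 CPM in EtOH_CON. Cort_ATGLi again overlapped no other group, while EtOH_ATGLi and EtOH_CON overlapped. Eda2r was also called higher by atglistatin under vehicle. Its log2 fold change was 1.80 ± 0.38 in EtOH_ATGLi over EtOH_CON, beside 3.78 ± 0.26 in Cort_ATGLi over Cort_CON. Phlda3 was at 0.91 ± 0.30 in EtOH_ATGLi over EtOH_CON and was not called (edgeR adjusted p = 0.0901).

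Tnfrsf10b (ENSMUSG00000022074, chr14:69767472-69784411) encodes the death receptor of mice for the ligand TRAIL. It had 1.13, 2.44 and 5.02 CPM as lowest, median and highest in Cort_ATGLi, 0, 0.122 and 0.527 CPM in Cort_CON, 0.134, 0.249 and 0.693 CPM in EtOH_ATGLi, and 0, 0.236 and 0.474 CPM in EtOH_CON. The median raw count was 31.5 in Cort_ATGLi and 1.5 in Cort_CON, so order among the 3 low groups cannot be read at this depth. The log2 fold change in Cort_ATGLi over Cort_CON was 3.83 ± 0.30.

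The feedback genes Mdm2 and Ccng1 were measured with far more counts per library (medians of 1256 for Mdm2 and 983 for Ccng1 in Cort_ATGLi) and showed smaller ratios with less spread. Mdm2 (ENSMUSG00000020184, chr10:117688875-117710758) marks p53 for destruction and is itself switched on by p53. Its lowest, median and highest levels were 55.9, 77.9 and 109.9 CPM in Cort_ATGLi, 27.5, 33.99 and 43.7 CPM in Cort_CON, 26.3, 31.9 and 40.99 CPM in EtOH_ATGLi, and 20.7, 26.7 and 37.9 CPM in EtOH_CON. The 3 other groups overlapped one another and none reached the lowest Cort_ATGLi library. The log2 fold change was 1.26 ± 0.09 in Cort_ATGLi over Cort_CON, 1.31 ± 0.10 in Cort_ATGLi over EtOH_ATGLi and 0.31 ± 0.10 in Cort_CON over EtOH_CON.

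Ccng1 (ENSMUSG00000020326, chr11:40748552-40755311) encodes cyclin G1, a partner of protein phosphatase 2A that acts on Mdm2. It had 45.6, 63.1 and 116 CPM as lowest, median and highest in Cort_ATGLi, 16.6, 21.5 and 33.3 CPM in Cort_CON, 20.0, 24.6 and 37.8 CPM in EtOH_ATGLi, and 13.9, 16.9 and 25.6 CPM in EtOH_CON. Each treatment alone was called higher for Ccng1, with log2 fold changes of 0.54 ± 0.14 in EtOH_ATGLi over EtOH_CON and 0.37 ± 0.13 in Cort_CON over EtOH_CON. Without the 6 libraries with Cpa1 above 20 CPM neither was called (0.55 and 0.35), and without the diabetic mice the corticosterone value was 0.19 and not called. The fitted value for the combination was 1.93 ± 0.14 in Cort_ATGLi over EtOH_CON.

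Cdkn1a (ENSMUSG00000023067, chr17:29090976-29100727), which encodes the cell cycle inhibitor p21, followed corticosterone and not the combination. Its lowest, median and highest levels were 121, 324 and 478 CPM in Cort_ATGLi, 92.0, 289 and 492 CPM in Cort_CON, 6.55, 21.5 and 25.7 CPM in EtOH_ATGLi, and 5.87, 14.4 and 30.5 CPM in EtOH_CON. The 2 corticosterone groups overlapped almost fully, and so did the 2 vehicle groups, with a gap between the pairs. The log2 fold change was 0.10 ± 0.22 in Cort_ATGLi over Cort_CON, against 4.06 ± 0.29 in Cort_ATGLi over EtOH_ATGLi and 4.15 ± 0.29 in Cort_CON over EtOH_CON. Cdkn1a was thus the 1 member not called higher in Cort_ATGLi over Cort_CON.

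Aen (ENSMUSG00000030609, chr7:78895854-78911209) encodes a nuclease that p53 induces and that promotes apoptosis. It averaged 3.04 ± 0.728 CPM in Cort_ATGLi (SD, n = 14), 1.23 ± 0.288 CPM in Cort_CON (n = 14), 1.08 ± 0.308 CPM in EtOH_ATGLi (n = 10) and 0.922 ± 0.309 CPM in EtOH_CON (n = 10). Its lowest Cort_ATGLi library, at 1.70 CPM, lay just above the highest Cort_CON library, at 1.68 CPM. The log2 fold change was 1.29 ± 0.15 in Cort_ATGLi over Cort_CON.

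Zmat3, Trp53inp1 and Bax differed less. Zmat3 (ENSMUSG00000027663, chr3:32334792-32366014), a zinc-finger protein that binds RNA, averaged 10.2 ± 1.5 CPM in Cort_ATGLi, 5.72 ± 0.743 CPM in Cort_CON, 6.35 ± 0.973 CPM in EtOH_ATGLi and 4.78 ± 1.21 CPM in EtOH_CON (SD, n as above). Its lowest Cort_ATGLi library, at 7.84 CPM, lay above every Cort_CON library and below the highest EtOH_ATGLi library, at 8.04 CPM. Its log2 fold change was 0.83 ± 0.09 in Cort_ATGLi over Cort_CON, and 0.40 ± 0.11 in EtOH_ATGLi over EtOH_CON, which was also called.

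Trp53inp1 (ENSMUSG00000028211, chr4:11156431-11174379), a stress protein that takes part in autophagy and modulates p53, averaged 97.0 ± 26.8 CPM in Cort_ATGLi, 49.8 ± 18.9 CPM in Cort_CON, 59.6 ± 14.6 CPM in EtOH_ATGLi and 66.1 ± 25.2 CPM in EtOH_CON. It was the 1 gene of the 10 with a fitted decrease under each single treatment, of -0.15 ± 0.20 in EtOH_ATGLi over EtOH_CON and -0.41 ± 0.18 in Cort_CON over EtOH_CON, neither of which edgeR called. Limma voom gave 0.019 for the first, and DESeq2 called the second lower, at -0.42. In Cort_ATGLi over Cort_CON it was 0.96 ± 0.17. Bax (ENSMUSG00000003873, chr7:45461697-45466898), which makes pores in the outer mitochondrial membrane during apoptosis, averaged 7.42 ± 2.56 CPM in Cort_ATGLi, 3.83 ± 1.43 CPM in Cort_CON, 5.48 ± 1.85 CPM in EtOH_ATGLi and 3.58 ± 1.64 CPM in EtOH_CON. For both genes Cort_ATGLi overlapped every other group, and Bax in Cort_ATGLi over EtOH_ATGLi (0.43 ± 0.20) was not called by edgeR or DESeq2 but was by limma voom (0.41).

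**Figure D2:**
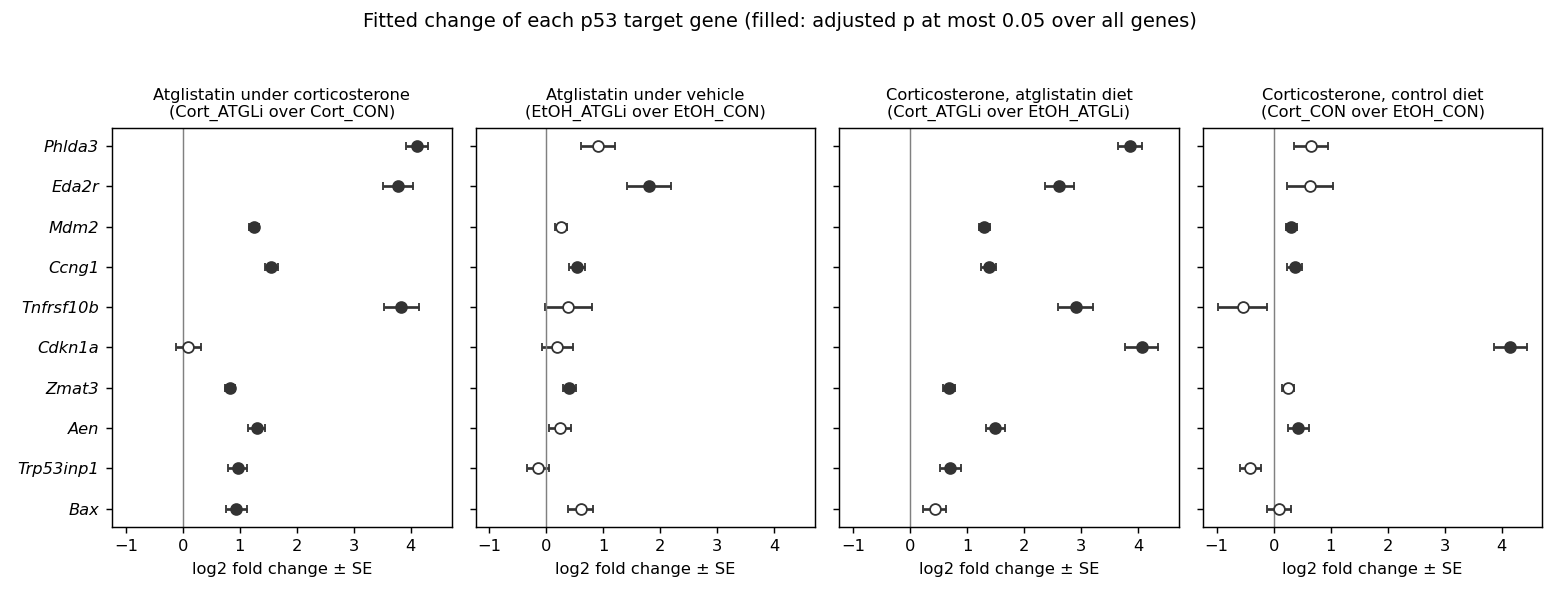
Fitted log2 fold change of each gene, with its SE, in 4 contrasts, with filled points for genes called at an adjusted p of at most 0.05 over all 12688 genes. Most genes sit well right of 0 in both contrasts of Cort_ATGLi and nearer to it for either treatment alone. For atglistatin under vehicle 9 of the 10 values are positive, with Eda2r at 1.80, and for corticosterone on the control diet 8 are. Cdkn1a is near 0 for atglistatin and at about 4 for corticosterone on either diet.

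The counts of genes called by contrast follow from how the 10 were picked, and nothing is read from them. In Cort_ATGLi over Cort_CON 9 of 10 were called higher and 0 lower, beside 5.19% and 6.47% of all genes, and the median log2 fold change was 1.27 for the 10 genes and 0.00 for all genes. Over EtOH_ATGLi 9 were called higher and 0 lower, beside 19.0% and 17.7%, with medians of 1.44 and 0.02. Over EtOH_CON all 10 were called higher and 0 lower, beside 22.2% and 21.4%, with medians of 1.83 and 0.02.
For corticosterone on the control diet, Cort_CON over EtOH_CON, 4 genes (Mdm2, Ccng1, Cdkn1a and Aen) were called higher and 0 lower by edgeR, beside 22.5% and 21.7% of all genes, whereas DESeq2 called 3 higher and 1 lower (Trp53inp1). For atglistatin under vehicle, EtOH_ATGLi over EtOH_CON, 3 genes (Eda2r, Ccng1 and Zmat3) were called higher and 0 lower, beside 1.47% and 1.66%. Without the libraries labelled diabetic, 1 gene, Cdkn1a, stayed called for corticosterone on the control diet. Aen, close to the threshold there, was not called under 6 of the other settings, and Zmat3 (0.25 ± 0.11) became called without the Cpa1 libraries (0.39) and with limma voom (0.31). The contrasts share groups, so they are not independent of one another.

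The genes were picked for being high mainly under the combination, which is what the interaction measures, so its values restate that choice and nothing is read from their count. The fitted effect of atglistatin was called larger under corticosterone than under vehicle in 7 of the 10 genes and smaller in 0, beside 0.701% and 0.725% of all genes. The difference of the log2 fold changes was 3.20 ± 0.39 for Phlda3, 3.44 ± 0.55 for Tnfrsf10b, 1.98 ± 0.52 for Eda2r, 1.11 ± 0.26 for Trp53inp1, 1.06 ± 0.24 for Aen, 1.01 ± 0.18 for Ccng1 and 0.99 ± 0.13 for Mdm2. It was 0.43 ± 0.15 for Zmat3, 0.34 ± 0.29 for Bax and -0.09 ± 0.35 for Cdkn1a, which were not called. Without the 6 libraries that carried pancreatic RNA, 4 of the 10 were called, and Eda2r, Aen and Trp53inp1 were not, at fitted differences of 2.03, 0.99 and 1.11.

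Genes for which every Cort_ATGLi library lay above all libraries of the other 3 groups made up 0.118% of those tested. There were 15 of them, 6 of the 10 p53 targets and 9 others. The others included Polk, which encodes the translesion DNA polymerase kappa, Ddias, a suppressor of DNA damage-induced apoptosis, Ddit4l, an inhibitor of mTORC1 signalling, and Gk, glycerol kinase. The remainder were 9230114K14Rik, Atp8b5, Cbr3, Dglucy and Exoc4. Gk averaged 124 ± 19.6 CPM in Cort_ATGLi and 79.0 ± 12.3 CPM in Cort_CON (SD, n = 14 each).

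The genes whose levels over all 48 libraries most resembled the mean of the 10, each scaled to its own spread, were Ddit4l (r = 0.926), the noncoding 9230114K14Rik (0.909), the carbonyl reductase gene Cbr3 (0.909), Eif2d (0.907), Atp8b5 (0.900), Endog (0.892), Gstm3 (0.875) and Dglucy (0.864). This is a description over libraries that share their groups, and the difference between groups makes up most of it. Ddit4l averaged 9.14 ± 2.67 CPM in Cort_ATGLi, 1.44 ± 0.374 CPM in Cort_CON, 2.03 ± 0.756 CPM in EtOH_ATGLi and 1.54 ± 0.338 CPM in EtOH_CON. Cbr3 averaged 15.1 ± 5.40 CPM in Cort_ATGLi, 2.07 ± 0.992 CPM in Cort_CON, 3.85 ± 1.52 CPM in EtOH_ATGLi and 1.06 ± 0.507 CPM in EtOH_CON. Reads of Gstm3 may be split with its near copies, and Eif2d and Endog overlap Rassf5 and Spout1 on the other strand, so with the strand setting not given their values are uncertain. None of the 10 targets has exons overlapping another gene of the count table. Exons of Bax overlap Gm45808 on the same strand, and those of Cdkn1a overlap AC167363.2 on the other strand, both absent from the count table. What this does to their counts was not tested.

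Within the Cort_ATGLi group the 10 genes varied together from mouse to mouse. All 45 pairs had a positive Pearson r of log2 CPM across the 14 libraries, with a median of 0.51 and a range of 0.04 to 0.87. The median r of the 10 genes with all other genes in these libraries was 0.00, with 49.6% positive. That median was also near 0 in Cort_CON (-0.002), EtOH_ATGLi (-0.002) and EtOH_CON (-0.006). It therefore cannot tell how unusual the 45 pairs are. The closest pairs were Phlda3 with Eda2r (0.87), Cdkn1a with Trp53inp1 (0.83) and Mdm2 with Aen (0.78), and the gene least tied to the others was Zmat3 (mean r 0.31). In Cort_CON the median over the 45 pairs was 0.03 with 24 positive, in EtOH_ATGLi 0.00 with 23 positive, and in EtOH_CON 0.11 with 23 positive. Phlda3, Eda2r and Tnfrsf10b had few counts in those 3 groups, which limits any correlation there. Mdm2 and Ccng1, which had a median of 476 and 330.5 counts in Cort_CON, correlated at 0.67 in Cort_CON and 0.75 in Cort_ATGLi. That pair was the highest of the 45 in Cort_CON. The pairs of Mdm2 and Ccng1 with Cdkn1a and Trp53inp1, also well counted, were lower in Cort_CON than in Cort_ATGLi. Mdm2 with Cdkn1a was at -0.48 in Cort_CON and 0.43 in Cort_ATGLi, and Mdm2 with Trp53inp1 at 0.04 and 0.61. Ccng1 with Cdkn1a was at -0.28 and 0.51, and Ccng1 with Trp53inp1 at 0.44 and 0.52. Some other pairs were higher in Cort_CON than in Cort_ATGLi. Among them were Cdkn1a with Aen, at 0.61 and 0.50, and Trp53inp1 with Bax, at 0.57 and 0.26. Eda2r with Mdm2 was at 0.65 and 0.48 despite the few counts of Eda2r in Cort_CON.

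The pattern rested on the mice at the low end. Cort_ATGLi replicates 25, 40 and 42 lay below the group mean for all 10 genes, and replicate 42 was the lowest library for 5 of them. Replicate 26, the 1 mouse of the group labelled diabetic, lay above the mean for 9 of 10 and was the highest for 5. Without replicates 25, 40 and 42, a choice made after seeing the data, the median r was 0.15 with 30 of 45 pairs positive. Without replicate 26 it was 0.47, and without replicate 41 it was 0.53. Even these 3 low libraries stayed above the other groups for Phlda3, Eda2r, Mdm2, Ccng1, Tnfrsf10b and Aen.

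**Figure D3:**
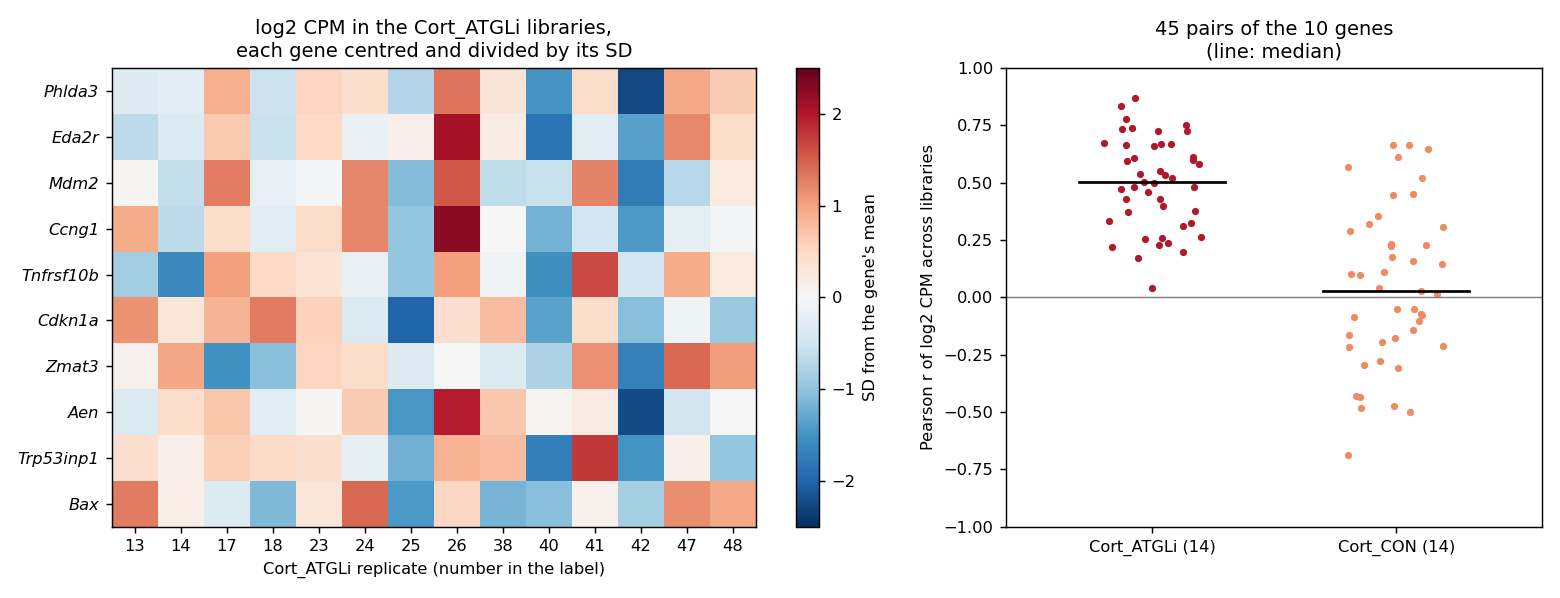
Left, log2 CPM of the 10 genes in the 14 Cort_ATGLi libraries, each gene centred on its mean and divided by its SD (colour), in the order of the replicate numbers. Right, Pearson r for the 45 gene pairs in Cort_ATGLi and in Cort_CON (line at the median). The columns of replicates 25, 40 and 42 are blue for nearly all genes and that of replicate 26 is red, and the median r is 0.51 in Cort_ATGLi and 0.03 in Cort_CON.

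The labels give a diabetic state and an insulin value for each mouse, which the choice of the genes did not use. Among the Cort_CON mice, 9 diabetic and 5 nondiabetic, 7 of the 10 genes had enough counts to be tested, and 0 were called. No gene at all was called (0% of 12003), with 448 at an unadjusted p under 0.05, and DESeq2 called 0 as well. Replicate 36, labelled nondiabetic, had a fed glucose nearer to the diabetic Cort_CON mice than to the other nondiabetic ones. It was above the 212 of the diabetic Cort_ATGLi mouse (unit not given). Without replicate 36, 0 genes were called too, and the settings without diabetic mice keep it. Mdm2 averaged 34.7 ± 4.25 CPM in diabetic and 33.2 ± 4.50 CPM in nondiabetic mice (SD, n = 9 and 5), a fitted log2 difference of 0.05 ± 0.11. Ccng1 averaged 24.5 ± 4.79 CPM in diabetic and 20.6 ± 6.04 CPM in nondiabetic mice, a difference of 0.24 ± 0.17, with an adjusted p of 0.992 in edgeR's quasi-likelihood test for all 7 genes. Differences of this size are within the spread between mice.

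Insulin (unit not given in the labels) ran from 2.19 to 38.0 across the Cort_ATGLi mice, and each gene was fitted against its log2. Of the 10 genes 8 had a positive slope and 0 were called, where 5.83% of 10917 genes were. Ccng1 came nearest, at 0.20 ± 0.06 log2 CPM per doubling of insulin (edgeR adjusted p = 0.0563). It was called with no filter on low counts (adjusted p = 0.0478) and by DESeq2 (adjusted p = 0.0342). Tnfrsf10b (-0.02 ± 0.12) and Zmat3 (-0.05 ± 0.05) had slopes below 0.

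These slopes depended on replicate 41, the library that stood apart, whose insulin was the lowest of the group. Without it 9 of the 10 slopes were positive, with a median of 0.28 against 0.00 for all genes, but 0 of 10724 genes were called. Slopes were then 0.30 ± 0.07 for Ccng1 (edgeR adjusted p = 0.101), 0.26 ± 0.07 for Trp53inp1 (0.111), 0.21 ± 0.06 for Mdm2 (0.118), 0.41 ± 0.13 for Cdkn1a (0.137) and 0.37 ± 0.13 for Tnfrsf10b (0.162). In all, 7 of the 10 genes had an unadjusted p under 0.05, as did 1919 of the 10724 genes. None of these slopes passes the adjustment, so a relation to insulin was not shown.

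**Figure D4:**
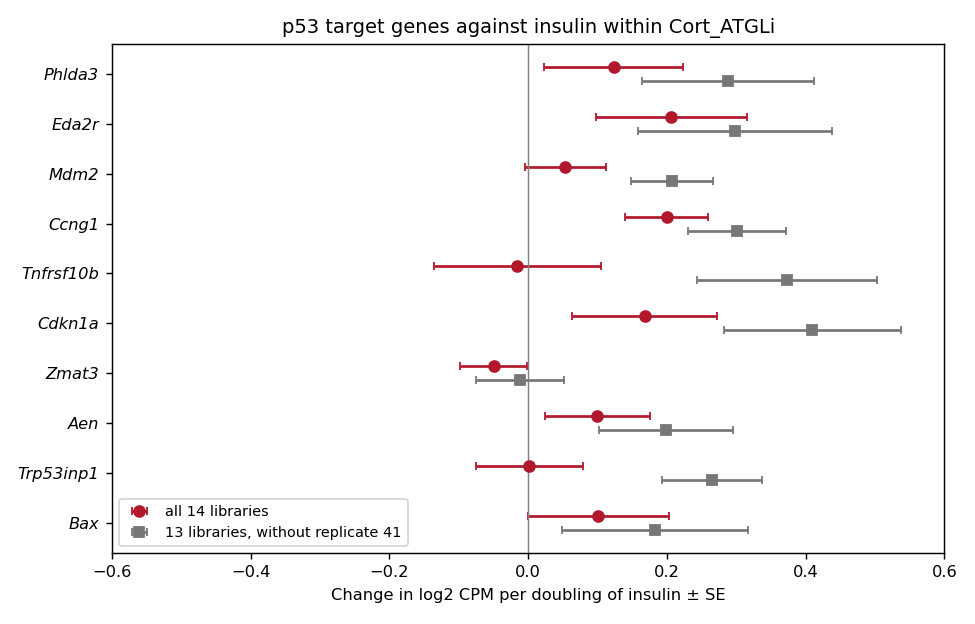
Change in log2 CPM per doubling of insulin (with SE) for each gene within Cort_ATGLi, for all 14 libraries (circles) and for the 13 without replicate 41 (squares). With replicate 41 left out every slope except that of Zmat3 is at or above 0.18, and with it the slopes run from -0.05 to 0.21.

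Among the Cort_CON mice 7 of the 10 genes could be fitted against insulin, 4 had a positive slope, and 0 were called, where 2.72% of 10737 genes were. Insulin there ran from 9.31 to 39.8 with a median of 37.8. Most mice thus lay near the top, and the slopes rest on the few lower ones. Mdm2 had a slope of 0.19 ± 0.07 (edgeR adjusted p = 0.129) and Cdkn1a of -0.42 ± 0.21 (adjusted p = 0.260). Slopes of the 2 groups were not tested against each other.

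Other genes of the pathway were followed in lists that hold none of the 10. Trp53, which encodes p53, averaged 2.17 ± 0.625 CPM in Cort_ATGLi and 2.52 ± 0.802 CPM in Cort_CON, a log2 fold change of -0.21 ± 0.15 (edgeR adjusted p = 0.414). Mdm4, the partner of Mdm2 that blocks p53, was at 13.99 ± 1.70 CPM in Cort_ATGLi and 13.8 ± 1.73 CPM in Cort_CON (adjusted p = 0.890). Of 12 core regulators tested, 1 rose and 0 fell, beside 5.19% and 6.47% of all genes, with a median of 0.00. The gene that rose was Ppm1d, a phosphatase that switches p53 signalling off and is induced by p53 (0.42 ± 0.10, edgeR adjusted p = 0.00363).

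Of 47 further p53 targets tested, in 4 lists, 9 rose and 2 fell in Cort_ATGLi over Cort_CON, which is 19.1% and 4.26%, beside the 5.19% and 6.47% of all genes. Their median log2 fold change was 0.08. The lists were chosen with earlier results of these data known, so these shares are a description and no independent evidence. Polk, 1 of the 9, was already named above among genes with every Cort_ATGLi library above all others. Among 11 genes of cell cycle and growth 3 rose and 0 fell, with a median of 0.51. Gtse1, which moves p53 out of the nucleus, rose by 2.41 ± 0.34 (1.82 ± 1.38 CPM in Cort_ATGLi, 0.362 ± 0.379 CPM in Cort_CON, edgeR adjusted p = 7.61e-07). The polo-like kinase gene Plk2 rose by 1.35 ± 0.17 (adjusted p = 4.21e-08) and the kinase gene Dyrk3 by 1.23 ± 0.19 (adjusted p = 3.43e-06). Gdf15, a stress hormone, was at 38.5 ± 18.4 CPM in Cort_ATGLi and 24.2 ± 13.2 CPM in Cort_CON and was not called (adjusted p = 0.0900).

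Among 9 DNA repair targets 3 rose and 0 fell, with a median of 0.17. They were Polk (1.00 ± 0.12, edgeR adjusted p = 6.75e-09), Rps27l, a ribosomal protein paralog (0.58 ± 0.17, adjusted p = 0.0142), and the excision repair nuclease Ercc5 (0.36 ± 0.07, adjusted p = 0.000142). Among 10 apoptosis targets only Siva1 rose (0.58 ± 0.09, adjusted p = 1.56e-05) and 0 fell, with a median of 0.12, while the apoptosis genes Bbc3 (0.08 ± 0.21) and Fas (0.16 ± 0.09) were not called. Among 17 targets in metabolism and transport 2 rose and 2 fell, with a median of -0.03. Ephx1, an epoxide hydrolase, rose by 0.71 ± 0.15 and the thiamine transporter gene Slc19a2 by 0.54 ± 0.12, whereas Prkab1, an AMP-activated kinase subunit, changed by -0.27 ± 0.07 and Sco2, which assembles cytochrome oxidase, by -0.23 ± 0.07.

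Of these 47 genes, 3 were called with a more positive effect of atglistatin under corticosterone than under vehicle, and 0 with a more negative one. The shares of all genes were 0.701% and 0.725%. The 3 genes were Plk2 (1.17 ± 0.27), Siva1 (0.66 ± 0.15) and Btg2 (1.83 ± 0.46), an antiproliferative gene. Btg2 levels were uneven, at 6.25 ± 6.59 CPM in Cort_ATGLi, 3.96 ± 0.784 CPM in Cort_CON, 5.06 ± 1.77 CPM in EtOH_ATGLi and 11.4 ± 8.68 CPM in EtOH_CON. Its mean was thus lower with atglistatin under vehicle and higher with it under corticosterone, where it was not called. For atglistatin under vehicle 1 of the 47 was called higher and 1 lower, which is 2.13% each, beside 1.47% and 1.66% of all genes.

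In Cort_ATGLi over Cort_CON, where Cdkn1a was not called, the cell cycle genes that p21 represses through the DREAM complex showed no common direction. Of 18 tested 1 rose (Ccne1, 0.95 ± 0.30), 1 fell (Rrm2, -0.50 ± 0.15), and the median was 0.02. In Cort_CON over EtOH_CON, where Cdkn1a was called higher, 2 rose and 7 fell, beside 22.5% and 21.7% of all genes, with a median of -0.26. Cdkn1a was also called higher in Cort_ATGLi over EtOH_ATGLi. There 3 rose and 1 fell, beside 19.0% and 17.7% of all genes, with a median of 0.07. In EtOH_ATGLi over EtOH_CON, where Cdkn1a was not called, 0 rose and 0 fell, beside 1.47% and 1.66%, with a median of -0.35. A relation of these genes to Cdkn1a was not tested. Of 11 genes induced by ATF4 and CHOP, another stress pathway, 0 were called in Cort_ATGLi over Cort_CON. Of 13 glucocorticoid receptor targets 0 rose and 3 fell in that contrast, beside 5.19% and 6.47% of all genes. The 3 were Mt2 (-1.60 ± 0.44), Mt1 (-1.24 ± 0.40) and Fkbp5 (-0.69 ± 0.20). Cdkn1a was also listed as a glucocorticoid receptor target and was left out there as a gene followed above. In Cort_CON over EtOH_CON 9 of the 13 rose and 0 fell, beside 22.5% and 21.7% of all genes, with a median of 1.33.

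**Figure D5:**
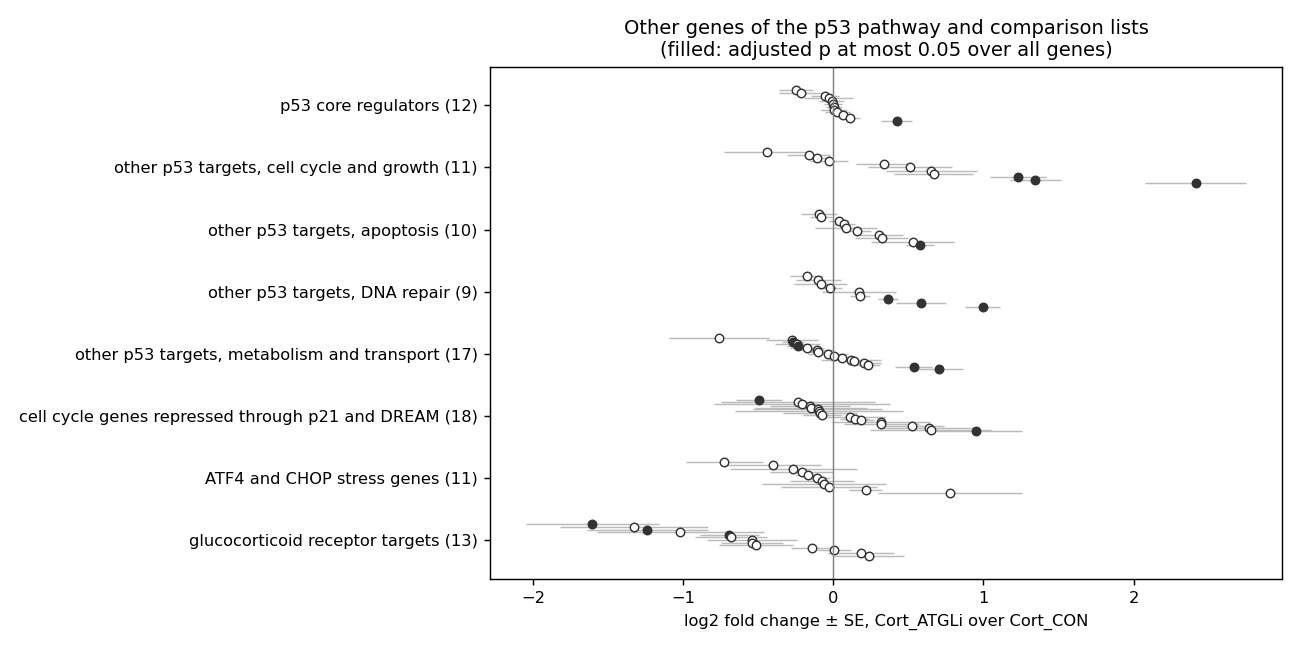
Log2 fold change in Cort_ATGLi over Cort_CON, with SE, of the genes of 8 lists that hold none of the 10 targets (number tested in brackets), with filled points for genes called at an adjusted p of at most 0.05 over all genes. The further p53 targets scatter around 0 with 9 filled points to the right and 2 to the left, and the highest is Gtse1 at 2.41.

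Of 42 markers of other cell types tested, from 6 lists, 0 rose and 8 fell in Cort_ATGLi over Cort_CON. Of these 8, 4 were pancreatic acinar genes, whose sum had a median of 17.2 CPM in Cort_ATGLi and 16.98 CPM in Cort_CON but reached 86.3 CPM in Cort_ATGLi and 3082 CPM in Cort_CON. Of the 35 markers of the other 5 types 4 fell, and of 6 hepatocyte markers tested 0 rose and 2 fell. Of all genes 5.19% were called higher and 6.47% lower in this contrast. The summed macrophage markers had a median of 99.5 CPM in Cort_ATGLi, 124 CPM in Cort_CON, 264 CPM in EtOH_ATGLi and 314 CPM in EtOH_CON. T, NK and B cell markers summed to a median of 3.59 CPM in Cort_ATGLi, 4.33 CPM in Cort_CON, 14.8 CPM in EtOH_ATGLi and 20.1 CPM in EtOH_CON, with Cd3e, Cd3g and Cd79a not analysed here. Between the corticosterone groups, endothelial markers summed to 230 CPM in Cort_ATGLi and 261 CPM in Cort_CON, stellate cell markers to 279 CPM in Cort_ATGLi and 278 CPM in Cort_CON, and bile duct markers to 49.01 CPM in Cort_ATGLi and 67.3 CPM in Cort_CON. The 9 genes called higher in Cort_ATGLi over Cort_CON were all called again without replicate 41, without the diabetic mice and without the 6 libraries with pancreatic RNA.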

How the data were processed

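Liver RNA was read as Lexogen QuantSeq libraries (50-base forward reads), per the labels' protocols. The authors deposited a table of counts per gene for 48 libraries and a normalized signal table. The submitters' processing notes name GRCm38, R 3.6 and DESeq2 1.24.0, with the aligner, counter, annotation and strandedness not given in the sources used. The signal values equal the deposited counts over 1 median-of-ratios factor per library (largest relative deviation 5.33e-15), and were used for that check and for symbols.

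The 10 genes and all gene lists were chosen with earlier results of these data known. Counts were filtered with filterByExpr (minimum count 10, minimum total 15), scaled by TMM and fitted with a mean per group over all 48 libraries in edgeR 4.0.16 (R 4.3.3), with quasi-likelihood tests adjusted by Benjamini-Hochberg over all 12688 genes. A gene is called at an adjusted p of at most 0.05. CPM use the TMM-adjusted library size, and SE is the log2 fold change over the root of F. Diabetic state and log2 insulin were fitted within 1 group. Besides the 10 genes, the rule named Trp53, Mdm4, up to 6 called genes per list by size of change in Cort_ATGLi over Cort_CON, and the 8 genes (mean of at least 1 CPM) closest to the 10 over all libraries. Sesn1, Sesn2 and other uncalled list members are counted but not named with values, except Gdf15, Bbc3 and Fas, named after their values were seen, as were Btg2 and the genes above all other libraries. Coordinates are GENCODE M21 (GRCm38). Motifs were searched in RefSeq promoters (GRCm38.p6) as the p53 decamer, named by its role and allowing no gap between 2 of them. Other settings were RLE factors, DESeq2 1.42.0, limma 3.58.1 voom with sample weights, no filter, the compared groups alone, and libraries left out. The edgeR test was first tested on simulated data. Each library has its own glucose and insulin value, so libraries are taken as separate mice; no batch, cage or day is labelled. Some genes may share reads with near copies.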

Additional observations from a re-analysis of the deposited data

Results flagged for a closer look

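In the EtOH_CON group, replicate 10 had 37.9 CPM of Mdm2, with the next library at 29.3 CPM, a gap of 0.50 of the range of the group. Replicate 2 had 25.6 CPM of Ccng1, with the next at 19.7 CPM, again 0.50 of the range. These were the 2 values far from the rest among 20 groups of 10 values examined, and chance flags about 1 in 20 groups. Replicate 10 is also 1 of the 6 libraries with Cpa1 above 20 CPM, at 32.6 CPM. Its part in the Mdm2 value was not tested.

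The effect of atglistatin differed between corticosterone and vehicle mice for 7 genes, the log2 difference being 3.20 for Phlda3, 3.44 for Tnfrsf10b, 1.98 for Eda2r, 1.11 for Trp53inp1, 1.06 for Aen, 1.01 for Ccng1 and 0.99 for Mdm2. These levels chose the genes, so the differences are no independent evidence.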

How the results depend on the processing

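Over all settings, 619 values of single genes kept their direction and side of the threshold, 25 were no longer called, 7 became called and 10 changed sign. In Cort_ATGLi over Cort_CON the count stayed at 9 of 10 under every setting tried. Members called higher by corticosterone on the control diet numbered 1 without the diabetic libraries, against 4. Members with an interaction numbered 4 without the libraries with Cpa1 above 20 CPM, against 7. Members called for atglistatin under vehicle numbered 1 when only the 2 compared groups were fitted, where 7 members passed the filter, against 3. Members called for insulin within Cort_ATGLi numbered 1 with no filter on low counts and 1 with DESeq2, against 0, and the count of all genes called there was 0 without replicate 41, against 636.

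EtOH_ATGLi and EtOH_CON share replicate numbers 9, 10, 11 and 12. Deviations of same-numbered libraries correlated at -0.07, 0.03, -0.13 and -0.04, so libraries with the same number were not alike in these deviations. Whether the numbers mark a shared cage or day was not tested. A fit of these 8 libraries with a replicate block called 0 members and 4 genes, and the same 8 without the block called 0 genes. Cort_ATGLi and EtOH_ATGLi share the numbers 13 and 14, whose deviations correlated at -0.04 and -0.02. A replicate block fit of those 4 libraries, added after seeing the data, called 2 members, Phlda3 and Cdkn1a, against 9 with all 48 libraries and 5 in the same 4 without the block.

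Signs changed for Trp53inp1 under atglistatin in vehicle mice with voom (0.019), Cdkn1a in the same contrast with the replicate block (-0.023) and Tnfrsf10b against insulin without replicate 41 (0.37). For diabetic state, leaving out 1 Cort_CON library in turn gave Cdkn1a 0.16 (without 32), 0.06 (33) and 0.01 (50), Mdm2 -0.0077 (33), and Bax -0.03 (36), -0.03 (46) and -0.044 (50), and 0 members were called each time. Over these fits Mdm2 ran from -0.0077 to 0.135, Cdkn1a from -0.308 to 0.163 and Bax from -0.044 to 0.165. Aen was not called for corticosterone on the control diet under 6 of the settings, nor Ccng1 there or for atglistatin under vehicle without the Cpa1 libraries, nor Zmat3 under vehicle without the diabetic libraries. The cause was not tested. Low counts limit Phlda3, Eda2r, Tnfrsf10b and Aen outside Cort_ATGLi.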
